A study of Mus musculus with 4 samples.

Results

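Glutathione peroxidases and other antioxidant enzymes were read by gene symbol from 4 single-cell libraries of mouse pancreatic islets. The 10 genes, of 32285 in the count matrices, were the glutathione peroxidases Gpx1, Gpx3 and Gpx4, the superoxide dismutases Sod1 and Sod2, catalase (Cat), peroxiredoxin 1 (Prdx1), the thioredoxin-binding protein Txnip, and the stress-inducible enzymes Hmox1 and Nqo1. The study set islets that carry both floxed Tet2 and floxed Tet3 alleles, Tet2(flox/flox)Tet3(flox/flox), with Pdx1 cre+ beside islets of the same floxed genotype without it, Pdx1 cre-. It also set islets from offspring of mothers with intrauterine hyperglycaemia (IHG) beside islets from offspring of control mothers. Tet2 and Tet3 encode dioxygenases that oxidise methylated cytosine, and Pdx1-Cre is a recombinase driven by a promoter of the pancreatic epithelium, so it is not restricted to beta cells. All mice were males of 8 weeks, and the islets were handpicked, cultured and dissociated with trypsin before capture in microwells for 3' counting of unique molecular identifiers (UMIs). Each condition is 1 library, and the sources used here do not give the number of mice per library. There is therefore no replicate error: every interval below covers counting error only, and every difference is between 2 libraries.

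Superoxide from the respiratory chain is turned into hydrogen peroxide by superoxide dismutases, SOD1 in the cytosol and SOD2 in the mitochondrial matrix. Hydrogen peroxide is then removed by catalase in peroxisomes, by peroxiredoxins with electrons from thioredoxin, and by glutathione peroxidases with electrons from glutathione. Rodent beta cells are known for low activity of catalase and of glutathione peroxidase. TXNIP binds and inhibits thioredoxin, and its gene is switched on by glucose through the transcription factors MondoA and ChREBP. HMOX1, which degrades haem, and NQO1, a quinone reductase, are classical targets of the transcription factor NRF2.

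The files held 45709 cell barcodes and 52489846 to 109110492 UMIs per library, and 40610 cells were kept: 9011 from the Cre-positive, 5572 from the Cre-negative, 11221 from the IHG and 14806 from the control offspring library. Cells were clustered without the 10 genes and named only as "-like" from marker lists. Beta-like cells, named from insulin and other beta markers, made up 30.5% of the kept Cre-positive and 58.5% of the Cre-negative cells, and 52.8% of the IHG and 70.8% of the control offspring cells. The Cre-negative library stood apart: 92.1% of its beta-like cells lay in cluster 3, while the beta-like cells of the other 3 libraries lay mostly in clusters 0, 1, 2 and 7. Library pairs shared 58 to 246 barcodes. Hormone RNA outside its own class also differed between libraries, with glucagon (Gcg) at 2696 CPM (UMIs of the gene per 1000000 UMIs of the class in that library) in Cre-positive and 359 CPM in Cre-negative endothelial-like cells, and at 23957 CPM in IHG and 1862 CPM in control offspring endothelial-like cells. Tet2 was at 33.7 CPM in Cre-positive and 46.5 CPM in Cre-negative beta-like cells, and Tet3 at 26.5 CPM in Cre-positive and 34.3 CPM in Cre-negative ones. These 3' tags may lie outside the floxed exons, so they do not check the deletion.

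Gpx1, Gpx3 and Gpx4 are selenoproteins: a UGA codon in the coding sequence is read as selenocysteine, the catalytic residue. Gpx1 encodes the cytosolic enzyme, Gpx3 the secreted plasma enzyme, and Gpx4 the enzyme that reduces lipid hydroperoxides in membranes. The stretches around that codon are shown because they are what the 3 enzymes share and where they differ; capitals mark the TGA codon and 27 bases stand on either side of it (GRCm38, plus strand, from GENCODE vM21 transcripts).
Gpx1: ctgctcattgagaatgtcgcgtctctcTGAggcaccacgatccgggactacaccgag
Gpx3: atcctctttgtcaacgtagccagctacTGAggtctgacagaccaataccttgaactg
Gpx4: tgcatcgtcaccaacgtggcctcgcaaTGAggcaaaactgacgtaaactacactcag
The codon is number 47 of 201 in Gpx1 (exon 1 of 2, chr9:108339451-108339453), number 73 of 226 in Gpx3 (exon 2 of 5, chr11:54907256-54907258) and number 73 of 197 in Gpx4 (exon 3 of 7, chr10:80054737-80054739). Over the 57 bases, Gpx1 and Gpx3 had 26 identical bases, Gpx1 and Gpx4 had 31, and Gpx3 and Gpx4 had 29. The genes themselves lie at chr9:108338903-108340343 (Gpx1), chr11:54902453-54910377 (Gpx3) and chr10:80047166-80056439 (Gpx4), all on the plus strand. Gpx4 has a processed pseudogene, Gpx4-ps2, in GENCODE, and whether reads were divided between such copies was not tested.

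Gpx3 separated the endocrine classes. In alpha-like cells it was at 1195 CPM in the Cre-positive, 1199 CPM in the Cre-negative, 1739 CPM in the IHG and 1049 CPM in the control offspring library. In delta-like cells it was at 304 CPM in the Cre-positive, 289 CPM in the Cre-negative, 529 CPM in the IHG and 229 CPM in the control offspring library. Alpha-like cells therefore exceeded delta-like cells in all 4 libraries, and the ranges of these classes did not overlap. Beta-like cells had 26.2 CPM in the Cre-positive, 60.2 CPM in the Cre-negative, 39.3 CPM in the IHG and 13.6 CPM in the control offspring library, below delta-like cells in each. Outside the named classes, Gpx3 was at 885 to 1520 CPM in clusters 11 and 14, whose cells were rich in pancreatic polypeptide RNA (Ppy). It was at 841 CPM in Cre-positive and 594 CPM in control offspring cells of cluster 10, which were rich in both Gcg and somatostatin (Sst) RNA.

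Gpx1 had another order. It was higher in delta-like than in beta-like cells, and higher in beta-like than in alpha-like cells, in all 4 libraries. Delta-like cells held 274 CPM in the Cre-positive, 207 CPM in the Cre-negative, 168 CPM in the IHG and 173 CPM in the control offspring library, while alpha-like cells held 81.9 to 113 CPM. The highest levels were in macrophage-like cells, with 662 CPM in the Cre-positive, 815 CPM in the Cre-negative and 831 CPM in the IHG library. Control offspring had 37 macrophage-like cells, below the minimum of 50 for a printed level. Gpx4 was at lower levels in the endocrine classes, from 12.0 CPM in alpha-like cells of control offspring to 39.5 CPM in delta-like cells of IHG offspring. Over beta-like, alpha-like and delta-like cells it spanned 21.6 to 33.4 CPM in the Cre-positive, 12.6 to 16.5 CPM in the Cre-negative, 35.8 to 39.5 CPM in the IHG and 12.0 to 21.4 CPM in the control offspring library. Endothelial-like cells were above all 3 endocrine classes in every library, at 28.5 to 69.5 CPM.

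Sod1 and Sod2 were present in all endocrine classes. Sod1 (chr16:90220754-90226329) was at 374 to 517 CPM in beta-like, 484 to 616 CPM in alpha-like and 517 to 697 CPM in delta-like cells; it was higher in delta-like than in beta-like cells in all 4 libraries, most so in IHG offspring, at 687 CPM in delta-like and 387 CPM in beta-like cells. Its gene overlaps Scaf4 on the other strand, and the sources used here do not say whether strand was used in counting. Sod2 (chr17:13006846-13040063) was at 117 to 151 CPM in beta-like, 92.2 to 122 CPM in alpha-like and 124 to 135 CPM in delta-like cells. The beta-like and delta-like ranges of Sod2 overlapped, and alpha-like cells had the lowest value of these 3 classes in each library, in the Cre-negative one by less than counting error (122 CPM in alpha-like, 124 CPM in delta-like cells).

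Catalase was low in the endocrine cells. Cat (chr2:103453849-103485160, minus strand) was at 1.94 to 2.98 CPM in beta-like cells and lower still in alpha-like cells. There the Cre-negative library had 0 of 5810810 UMIs, where a count of 3 UMIs would be 0.516 CPM. Delta-like cells had 6.81 to 13.6 CPM and endothelial-like cells 29.2 to 65.0 CPM, so alpha-like cells were the lowest and endothelial-like cells the highest of these 4 classes in each library. Macrophage-like cells had 66.1 CPM in the Cre-positive, 109 CPM in the Cre-negative and 82.2 CPM in the IHG library. Prdx1 (chr4:116685544-116700822), which reduces peroxide with thioredoxin, was at 220.3 to 269 CPM in beta-like cells, 180.4 to 261 CPM in alpha-like and 242 to 312 CPM in delta-like cells. Endothelial-like cells had more of it, 331 to 758 CPM, in each library.

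Txnip (chr3:96557957-96561883) was at 327 CPM in Cre-positive, 837 CPM in Cre-negative, 266 CPM in IHG and 354 CPM in control offspring beta-like cells. Endothelial-like cells had 476 CPM in the Cre-positive, 2204 CPM in the Cre-negative, 659 CPM in the IHG and 608 CPM in the control offspring library. The Cre-negative library was the highest of the 4 in each of the beta-like, alpha-like, delta-like and endothelial-like classes. Txnip overlaps Gm15441 on the other strand. Hmox1 (chr8:75093621-75100589), the haem oxygenase, was highest in macrophage-like cells, at 1756 CPM in the Cre-positive, 1113 CPM in the Cre-negative and 945 CPM in the IHG library, against 5.18 to 55.4 CPM in the beta-like, alpha-like and delta-like cells. Nqo1 (chr8:107388225-107403206, minus strand) stayed below 10 CPM in the beta-like, alpha-like, delta-like, endothelial-like and macrophage-like classes.

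**Figure D1:**
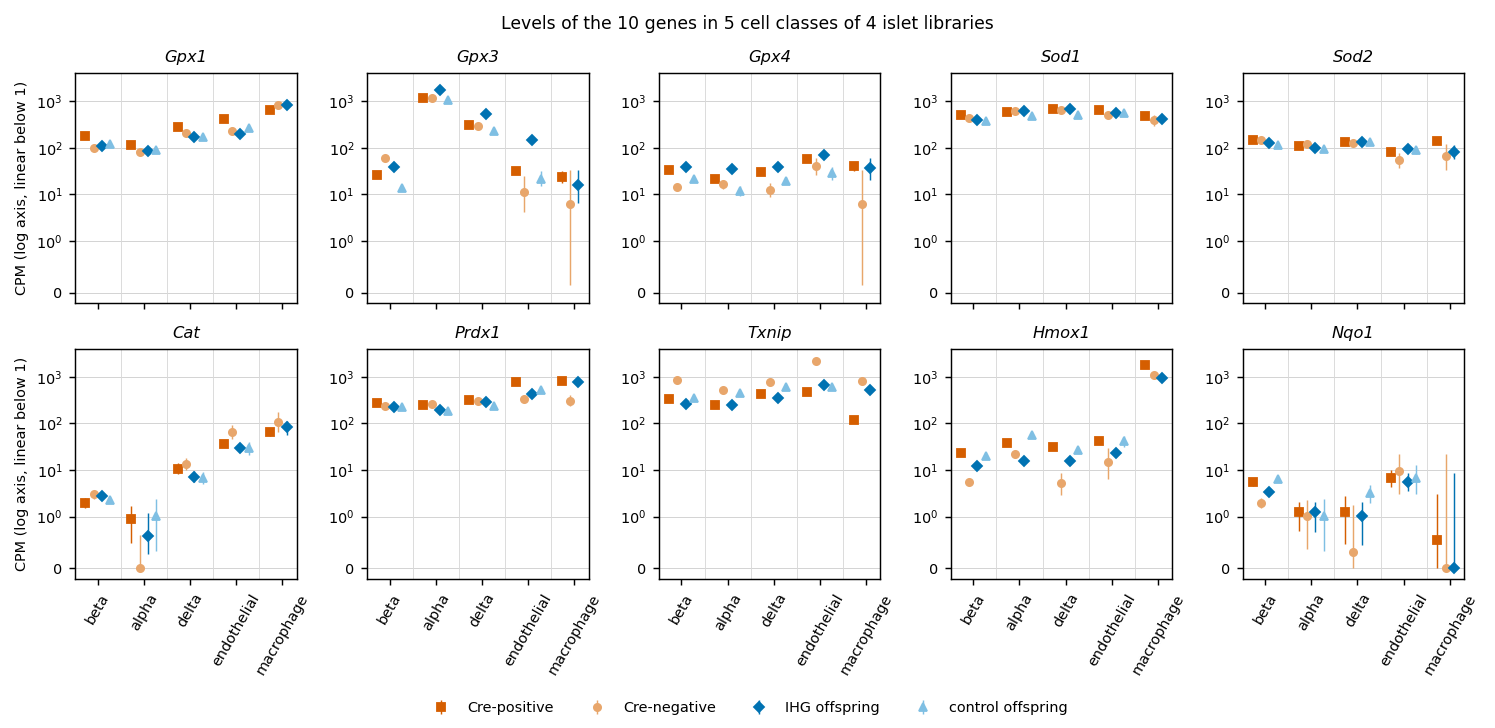
Level of each of the 10 genes in CPM (y axis, log scale above 1 and linear below) in 5 cell classes (x axis) of the 4 libraries; each point is 1 library and each bar the exact Poisson 95% interval of counting error. Gpx3 stands at 1049 to 1739 CPM in alpha-like cells, and Hmox1 at 945 to 1756 CPM in macrophage-like cells.

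The first comparison asked how the genes differed between floxed islets with and without Pdx1-Cre. In beta-like cells, Hmox1, Gpx4 and Gpx1 were higher and Txnip and Gpx3 lower in the Cre-positive library by the rule used throughout: a ratio of at least 1.5-fold, with a floor of 20 CPM that 1 of the 2 libraries had to reach. Hmox1 was at 23.0 CPM in Cre-positive and 5.48 CPM in Cre-negative beta-like cells, a ratio of 4.20 (95% interval 3.58 to 4.95). Gpx4 was at 33.4 CPM in Cre-positive and 14.5 CPM in Cre-negative cells, a ratio of 2.30 (2.07 to 2.56). Gpx1 was at 176 CPM in Cre-positive and 100.4 CPM in Cre-negative cells, a ratio of 1.75 (1.68 to 1.83). In cluster 0, the beta-like cluster with enough cells of both libraries, Gpx1 did not pass the rule (139 CPM in Cre-positive, 129 CPM in Cre-negative; ratio 1.08, 0.836 to 1.38). Gpx4 and Hmox1 reached 20 CPM only in the Cre-positive library, so they could be called only as higher.

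Txnip was at 327 CPM in Cre-positive and 837 CPM in Cre-negative beta-like cells, 2.56-fold lower (2.50 to 2.62). Gpx3 was at 26.2 CPM in Cre-positive and 60.2 CPM in Cre-negative beta-like cells, 2.30-fold lower (2.12 to 2.49). Both genes had their high value in the library whose beta-like cells lay in cluster 3: with that cluster left out, a choice made after seeing the data, Txnip had a log2 ratio of -0.12 and Gpx3 one of 0.92, opposite in direction. Sod2 differed by less than its counting error, at 150.4 CPM in Cre-positive and 151 CPM in Cre-negative cells (ratio 0.997, 0.959 to 1.04). Sod1 (517 CPM in Cre-positive, 446 CPM in Cre-negative) and Prdx1 (269 CPM in Cre-positive, 236 CPM in Cre-negative) had ratios of 1.16 and 1.14. Cat and Nqo1 were under 20 CPM in both libraries and were not counted.

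The same rule called 26.3% of the 6458 genes it could be applied to in beta-like cells, 6.95% as higher and 19.4% as lower, against 5 of the 8 members that could be counted. Of all genes, 0.635% had a larger ratio than Hmox1, 2.25% a larger one than Gpx4 and 4.32% a larger one than Gpx1. For the lower genes, 1.98% had a smaller ratio than Txnip and 2.96% a smaller one than Gpx3. The median log2 ratio of all genes was -0.21, and that of the 8 members 0.20. Scaling by the median of ratios in place of totals left the direction of all 5 genes, while the genes called higher and lower over the whole table were then 770 and 628 in place of 449 and 1250.

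**Figure D2:**
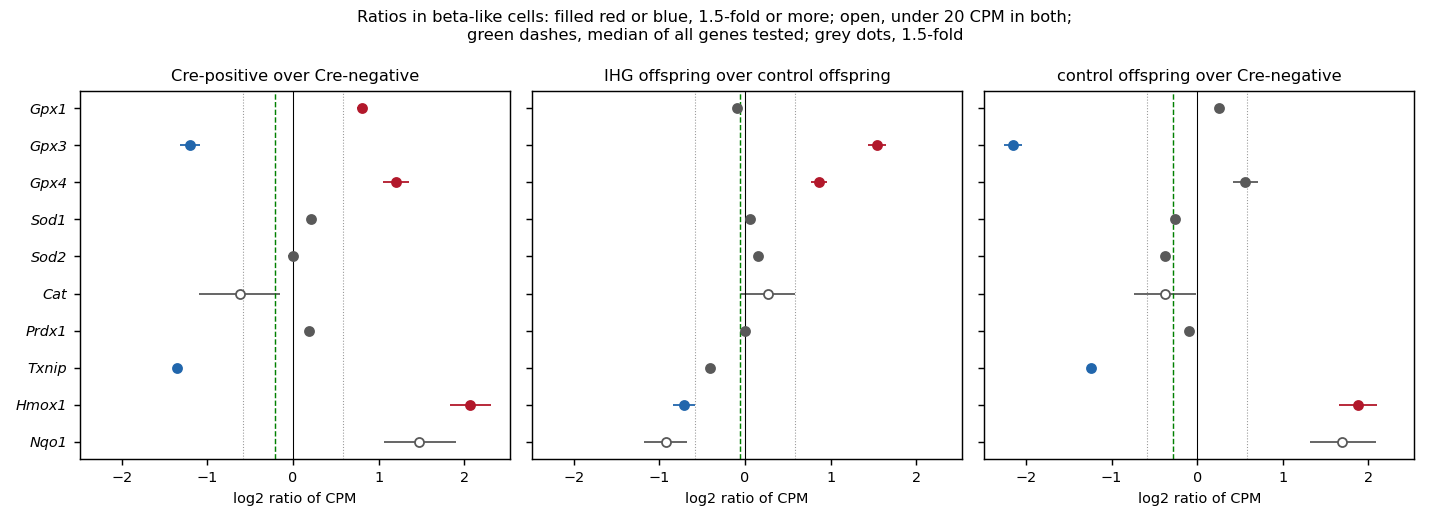
Log2 ratio of CPM (x axis) of each gene in beta-like cells for Cre-positive over Cre-negative, IHG over control offspring and control offspring over Cre-negative; bars are 95% intervals of counting error, coloured points passed 1.5-fold, open points were under 20 CPM in both libraries, and the green dashed line is the median of all genes. Hmox1, Txnip and Gpx3 lie on the same side in the left and right panels, which share the Cre-negative library.

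The other classes shared 2 of these differences. Txnip was lower in the Cre-positive library in all 5 classes compared: alpha-like cells had 254 CPM in the Cre-positive and 519 CPM in the Cre-negative one (2.04-fold lower), and delta-like cells 437 CPM in the Cre-positive and 791 CPM in the Cre-negative one (1.81-fold lower). In endothelial-like cells it was at 476 CPM in the Cre-positive and 2204 CPM in the Cre-negative one (4.63-fold lower, 4.30 to 4.98), and in macrophage-like cells at 119 CPM in the Cre-positive and 803 CPM in the Cre-negative one (6.75-fold lower). These endothelial-like and macrophage-like cells were named from markers of lineages other than the pancreatic epithelium in which Pdx1 acts. Neither recombination in them nor an indirect effect of Cre in other cells was tested. With median-of-ratios scaling the alpha-like difference of Txnip was -0.57 on the log2 scale and no longer reached 1.5-fold. Hmox1 was higher in the Cre-positive library in all 5 classes. In delta-like cells it was at 31.2 CPM in the Cre-positive and 5.18 CPM in the Cre-negative library (ratio 6.01, 3.58 to 10.8), and in alpha-like cells at 37.8 CPM in the Cre-positive and 21.9 CPM in the Cre-negative library (ratio 1.73). In endothelial-like cells Hmox1 was at 41.5 CPM with Cre and 14.9 CPM without it. There the 10 macrophage markers summed to 56.0 CPM with Cre, where 1 of them was at 0, and to 14.9 CPM without it, where 8 were at 0. The 4 haemoglobin genes summed to 2168 CPM with Cre and 0 CPM without it. Their part in the Hmox1 difference was not tested.

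Gpx4 and Gpx3 did not do the same in each class. Gpx4 was higher in Cre-positive delta-like cells, at 30.3 CPM in the Cre-positive and 12.6 CPM in the Cre-negative library (ratio 2.40, 1.68 to 3.51), and its ratio was 1.31 in alpha-like and 1.38 in endothelial-like cells, short of the rule. Gpx3 had ratios of 0.997 (0.969 to 1.03) in alpha-like and 1.05 (0.968 to 1.15) in delta-like cells, and was higher in endothelial-like cells, at 32.2 CPM in the Cre-positive and 11.1 CPM in the Cre-negative library, where it had 6 UMIs. Gpx1 passed the rule in beta-like and endothelial-like cells and had ratios of 1.38 in alpha-like and 1.32 in delta-like cells.

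Prdx1 passed the rule in endothelial-like cells, with 758 CPM in the Cre-positive and 331 CPM in the Cre-negative library (ratio 2.29, 1.97 to 2.68). It also passed in macrophage-like cells, with 826 CPM in the Cre-positive and 310.1 CPM in the Cre-negative library (ratio 2.66, 2.02 to 3.59). Sod2 was higher and Cat lower in both classes: in endothelial-like cells Sod2 was at 82.7 CPM in the Cre-positive and 53.9 CPM in the Cre-negative library, and Cat at 36.2 CPM in the Cre-positive and 65.0 CPM in the Cre-negative library. In macrophage-like cells Sod2 was at 139 CPM in the Cre-positive and 66.9 CPM in the Cre-negative library, and Cat at 66.1 CPM in the Cre-positive and 109 CPM in the Cre-negative library, where the interval of its ratio (0.366 to 1.05) reached past 1. Gpx3 and Gpx4 each had 1 UMI in Cre-negative macrophage-like cells, which gave ratios of 3.93 (0.668 to 159) and 6.57 (1.14 to 263). The Cre-negative values rest on 181 endothelial-like and 50 macrophage-like cells. Cre-positive alpha-like cells lay mostly in cluster 4 (1482 cells) and Cre-negative ones in cluster 12 (757 cells), and delta-like cells in cluster 6 with Cre (788 cells) and cluster 8 without it (484 cells). Of all genes in alpha-like cells the rule called 41.8% (5.08% higher, 36.7% lower), against 2 of 8 members (1 higher, 1 lower). In delta-like cells it called 23.9% (9.41% higher, 14.5% lower), against 3 of 8 members (2 higher, 1 lower), where Gpx4 and Hmox1 reached 20 CPM only with Cre. Endothelial-like cells had 45.2% (14% higher, 31.2% lower) and 7 of 9 members (5 higher, 2 lower), and macrophage-like cells 53.7% (20% higher, 33.7% lower) and 7 of 9 members (5 higher, 2 lower). Gpx3 and Hmox1 in endothelial-like and Gpx3 and Gpx4 in macrophage-like cells likewise reached 20 CPM only with Cre.

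The second comparison asked how offspring of IHG mothers differed from offspring of control mothers. In beta-like cells Gpx3 and Gpx4 were higher and Hmox1 lower in IHG offspring, 3 of the 8 members that could be counted, where the rule called 1.34% of 5516 genes, 0.544% as higher and 0.798% as lower. Gpx3 was at 39.3 CPM in IHG and 13.6 CPM in control offspring, a ratio of 2.90 (2.69 to 3.13), and 0.0363% of genes had a larger one. Gpx4 was at 38.9 CPM in IHG and 21.4 CPM in control offspring, a ratio of 1.82 (1.70 to 1.94), and 0.145% of genes had a larger one. Hmox1 was at 12.3 CPM in IHG and 20.1 CPM in control offspring, 1.64-fold lower (ratio 0.610, 0.557 to 0.667), and 0.326% of genes had a smaller ratio. Over 6 beta-like clusters its ratio ran from 0.185 to 0.965, and it was 1.5-fold or more lower in 3. In cluster 0 the Hmox1 ratio was 0.965 (0.812 to 1.14), and in cluster 2 it was 0.847 (0.738 to 0.972). Gpx3 reached 20 CPM only in IHG offspring and Hmox1 only in control offspring, so each could be called in 1 direction only. In cluster 2, the cluster these libraries shared most (22.4% of IHG and 25.9% of control offspring beta-like cells), the ratio of Gpx3 was 0.948 (0.769 to 1.16). In cluster 1 (44.2% of IHG and 17.2% of control offspring beta-like cells) it was 2.72 (2.07 to 3.64). Gpx3 was under 20 CPM in both libraries in these clusters, and its ratio was above 1 in 5 of 6 clusters.

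Gpx1, Sod1, Sod2 and Prdx1 were close to equal in beta-like cells. Gpx1 was at 112 CPM in IHG and 120.1 CPM in control offspring (ratio 0.934), Sod1 at 387 CPM in IHG and 374 CPM in control offspring (1.04), Sod2 at 129 CPM in IHG and 117 CPM in control offspring (1.11), and Prdx1 at 220.3 CPM in IHG and 221 CPM in control offspring (0.999, 0.976 to 1.02). Txnip was at 266 CPM in IHG and 354 CPM in control offspring, 1.33-fold lower (1.31 to 1.36), short of the rule.

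Gpx4 and Gpx3 were higher in IHG offspring in all 5 classes compared. Gpx4 was at 35.8 CPM in IHG and 12.0 CPM in control offspring alpha-like cells (ratio 2.98, 2.27 to 3.98), where 0.0173% of genes had a larger ratio. In delta-like cells it was at 39.5 CPM in IHG and 19.9 CPM in control offspring (ratio 1.99), in proliferating cells at 36.3 CPM in IHG and 23.3 CPM in control offspring (ratio 1.55), and in endothelial-like cells at 69.5 CPM in IHG and 28.5 CPM in control offspring (ratio 2.44, 1.74 to 3.50). The IHG values of Gpx4 in these endocrine classes were thus close to each other. Gpx3 was at 1739 CPM in IHG and 1049 CPM in control offspring alpha-like cells (ratio 1.66, 1.61 to 1.71; 1.47, short of the rule, within cluster 4), and at 529 CPM in IHG and 229 CPM in control offspring delta-like cells (ratio 2.31, 2.18 to 2.45). In endothelial-like cells Gpx3 was at 144 CPM in IHG and 21.9 CPM in control offspring, a ratio of 6.56 (4.55 to 9.82). Gcg in the same cells was at 23957 CPM in IHG and 1862 CPM in control offspring.

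Hmox1 and Txnip were also lower in IHG alpha-like and delta-like cells. Hmox1 was at 15.3 CPM in IHG and 55.4 CPM in control offspring alpha-like cells (3.62-fold lower, 3.00 to 4.37), and at 15.3 CPM in IHG and 26.4 CPM in control offspring delta-like cells (1.72-fold lower). Within cluster 4 of the alpha-like cells the difference was smaller, with a ratio of 0.542 (0.445 to 0.658). Delta-like cells lay mostly in cluster 8 in IHG (61.5%) and in cluster 6 in control offspring (95.5%), and within cluster 6 Hmox1 was not lower, at 32.2 CPM in IHG and 26.6 CPM in control offspring (ratio 1.21, 0.937 to 1.56). In proliferating cells it was at 8.68 CPM in IHG and 8.17 CPM in control offspring, under the floor, while Txnip there was at 204 CPM in IHG and 319 CPM in control offspring (1.57-fold lower). Txnip was at 243 CPM in IHG and 444 CPM in control offspring alpha-like cells (1.82-fold lower, 1.73 to 1.93), and at 345 CPM in IHG and 610.4 CPM in control offspring delta-like cells (1.77-fold lower), a difference that was short of the rule within cluster 6 (ratio 0.681, 0.639 to 0.726). In endothelial-like cells Txnip had a ratio of 1.08, at 659 CPM in IHG and 608 CPM in control offspring. Of all genes in alpha-like cells the rule called 8.48% (1.5% higher, 6.98% lower), against 4 of 8 members (2 higher, 2 lower). Of these, Gpx4 reached 20 CPM only in IHG and Hmox1 only in control offspring cells, in alpha-like and delta-like cells alike, so each could be called in 1 direction only. In delta-like cells it called 10.2% (4.19% higher, 6.01% lower), against 4 of 8 members (2 higher, 2 lower). Proliferating cells had 10.6% (7.04% higher, 3.58% lower) and 3 of 7 members (2 higher, 1 lower), Gpx3 reaching 20 CPM only in IHG, and endothelial-like cells 29.3% (9.89% higher, 19.4% lower) and 3 of 9 members (2 higher, 1 lower). Alpha-like cells of control offspring lay in cluster 4 (959 cells), those of IHG offspring in clusters 9 (1057 cells) and 4 (825 cells).

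**Figure D3:**
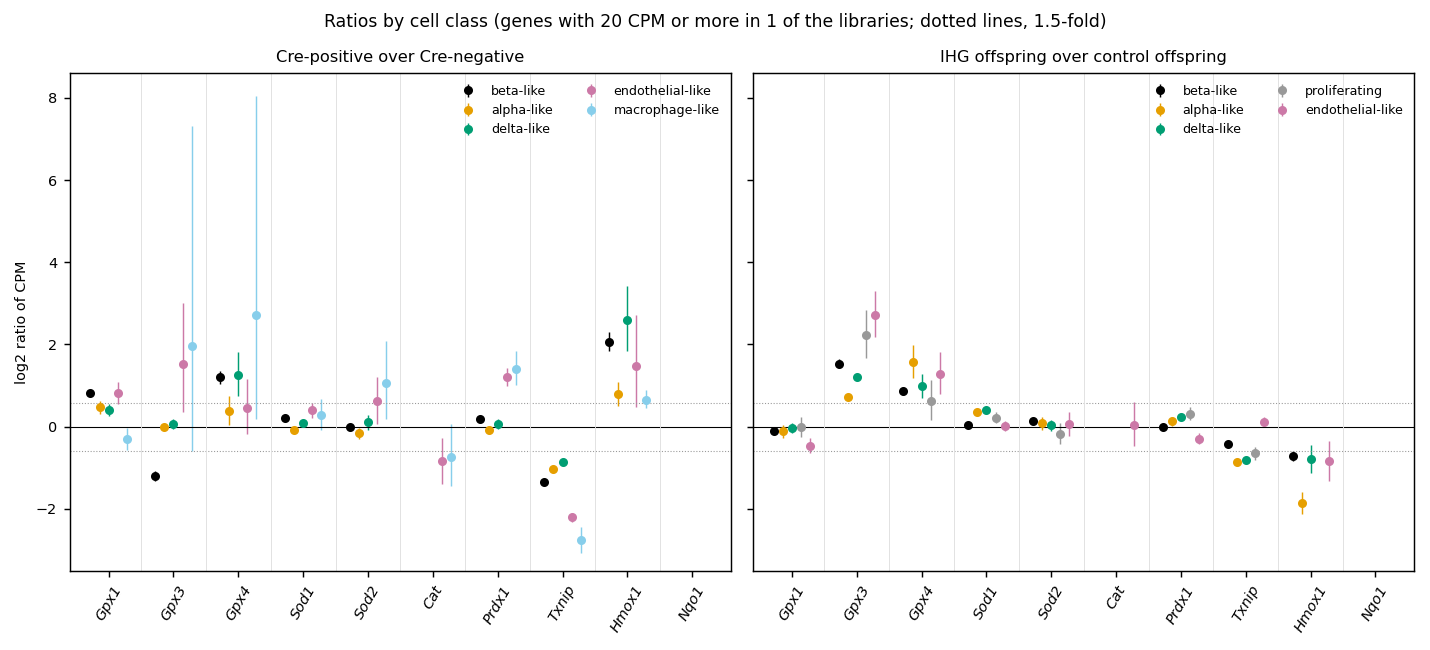
Log2 ratio of CPM (y axis) of each gene (x axis) in each class, for Cre-positive over Cre-negative and for IHG over control offspring; bars are 95% intervals of counting error and dotted lines mark 1.5-fold. Gpx4 lies above 0 in every class of both panels, with ratios of 1.55 to 2.98 in IHG over control offspring.

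Control offspring and Cre-negative mice carry neither tested condition, and the ratio between these 2 libraries gives a yardstick of how far apart they lay. The labels give the Cre-negative mice a floxed genotype and the control offspring a treatment but no genotype. Differences of genotype, strain, experiment and library therefore cannot be told apart in this ratio. In beta-like cells the rule called 22.9% of 6333 genes, 3.68% as higher and 19.2% as lower, and 3 of 8 members, 1 as higher and 2 as lower. Hmox1 was 3.67-fold higher in control offspring (20.1 CPM) than in Cre-negative cells (5.48 CPM), with an interval of 3.16 to 4.30. Txnip was 2.36-fold lower in control offspring (354 CPM) than in Cre-negative cells (837 CPM). Gpx3 was 4.44-fold lower in control offspring (13.6 CPM) than in Cre-negative cells (60.2 CPM). Gpx1 (120.1 CPM in control offspring, 100.4 CPM in Cre-negative) and Gpx4 (21.4 CPM in control offspring, 14.5 CPM in Cre-negative) had ratios of 1.20 and 1.47. This comparison and that of Cre-positive with Cre-negative islets share the Cre-negative library. Side by side, the ratio of Hmox1 was 4.20 for Cre-positive and 3.67 for control offspring over Cre-negative cells, and that of Txnip was 0.391 for Cre-positive and 0.423 for control offspring. Gpx3 had 0.435 for Cre-positive and 0.225 for control offspring, Gpx1 had 1.75 and Gpx4 had 2.30 for Cre-positive, against 1.20 and 1.47 for control offspring. Hmox1, Txnip and Gpx3 thus lay as far from the Cre-negative library in islets without either condition as, or nearly as far as, in Cre-positive islets, and Gpx4 and Gpx1 did not. In alpha-like cells the rule called 38.7% of genes (4.52% higher, 34.2% lower) and of the set Hmox1, at 55.4 CPM in control offspring and 21.9 CPM in Cre-negative cells. In delta-like cells it called 25% (7.35% higher, 17.7% lower) and again Hmox1, at 26.4 CPM in control offspring and 5.18 CPM in Cre-negative cells. In endothelial-like cells it called 42.2% (14.4% higher, 27.8% lower) and 6 of 9 members, among them Txnip, at 608 CPM in control offspring and 2204 CPM in Cre-negative cells (3.63-fold lower).

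With 4 libraries, the order of levels can be read directly. Gpx4 was higher in both the Cre-positive and the IHG library than in both the Cre-negative and the control offspring library in beta-like, alpha-like, delta-like and endothelial-like cells. This order was met in all 4 classes by 32 of 5320 genes, 0.602%, and by no other gene of the set. Genes were counted if at least 1 of the 4 libraries reached 20 CPM in each class. In alpha-like and delta-like cells Gpx4 reached it only in the Cre-positive and IHG libraries. It thus entered the count there only through the libraries where it was high, and the share is a description. Within single classes 8.05% of genes had it in beta-like, 3.29% in alpha-like, 9.45% in delta-like and 4.26% in endothelial-like cells. Other genes of the set had it in single classes: Gpx3, Sod1 and Sod2 in delta-like and Gpx3 and Sod1 in endothelial-like cells. Txnip was lower in both the Cre-positive and the IHG library than in both others in beta-like, alpha-like and delta-like cells, an order that 23.8% of genes had in beta-like, 32% in alpha-like and 19% in delta-like cells. In endothelial-like cells, where 20.6% of genes had it, the IHG value of Txnip was above that of control offspring.

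Within beta-like cells the clusters differed in Gpx3 more than in Gpx4. In cluster 3 Gpx3 was at 322 CPM in IHG, 87.8 CPM in control offspring and 63.9 CPM in Cre-negative cells. In cluster 0 it was at 17.1 CPM in Cre-positive and 14.4 CPM in Cre-negative cells, and at 10.5 CPM in IHG and 8.22 CPM in control offspring cells. Cluster 3 held 54.0% of the Gpx3 UMIs of IHG beta-like cells and 98.3% of those of Cre-negative ones. The ratio of IHG to control offspring ranged from 0.948 to 3.66 over the 6 clusters with 50 or more cells of both, and passed 1.5-fold in 3 of them. For Gpx4 the ratio was above 1 in 6 of 6 clusters, from 1.30 to 4.25, and passed 1.5-fold in 5.

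Between Cre-positive and Cre-negative beta-like cells only cluster 0 had enough cells, 114 and 141. There Gpx4 was at 38.6 CPM in Cre-positive and 13.1 CPM in Cre-negative cells, and Hmox1 at 21.4 CPM in Cre-positive and 9.15 CPM in Cre-negative cells. Txnip was at 289 CPM in Cre-positive and 353 CPM in Cre-negative cells of cluster 0 (ratio 0.818, 0.693 to 0.963), while the Cre-negative cells of cluster 3 had 876 CPM. With cluster 3 left out, the comparison rests on 2722 Cre-positive and 257 Cre-negative cells. Gpx3 was then higher in Cre-positive cells (log2 ratio 0.92), Txnip differed by -0.12, Gpx1 by 0.49, Hmox1 by 0.87 and Gpx4 by 1.19, so that Gpx1 and Txnip no longer passed the rule. Without cluster 3, Txnip was thus lower in Cre-positive cells by less than 1.5-fold. Gpx3 was higher in them by more than 1.5-fold, the reverse of its direction over all beta-like cells. Gpx4 and Hmox1 still passed the rule. Of all genes the rule then called 16.6%. For IHG over control offspring, leaving out cluster 3 gave log2 ratios of 0.64 for Gpx3, which then stayed under 20 CPM, 0.83 for Gpx4 and -0.64 for Hmox1.

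**Figure D4:**
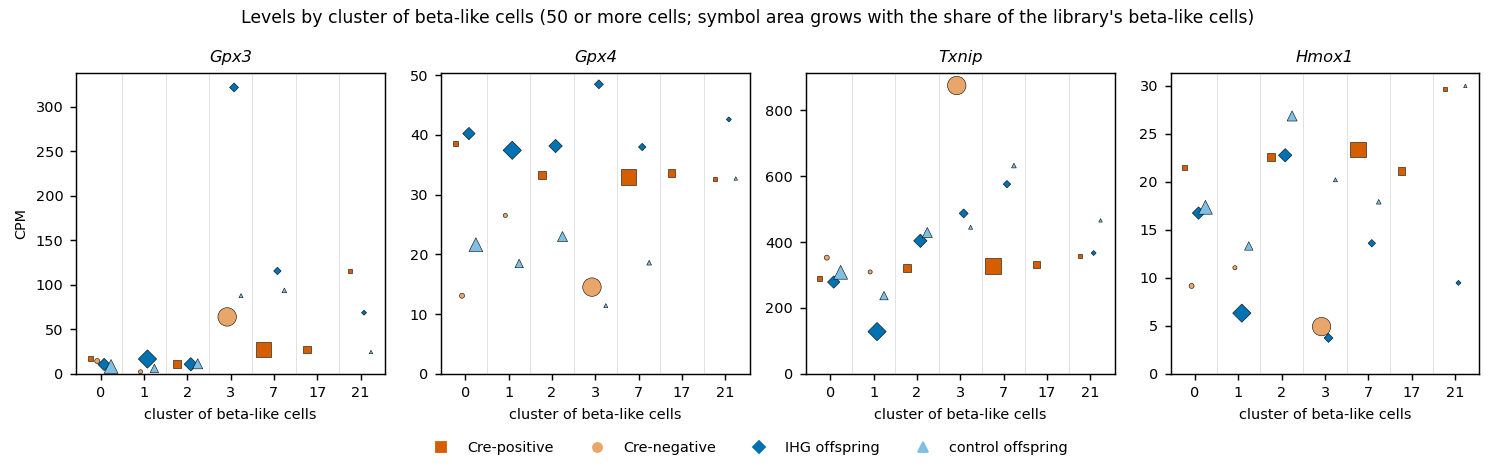
Level in CPM (y axis) of Gpx3, Gpx4, Txnip and Hmox1 by cluster of beta-like cells (x axis), 1 symbol for each library with 50 or more cells in the cluster, with symbol area growing with the share of that library's beta-like cells. Gpx3 reaches 322 CPM in IHG cells of cluster 3, whereas Gpx4 in IHG cells lies above control offspring in each cluster that holds both.

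Transcripts of other cell types were read beside these values. Gpx3 is abundant in alpha-like cells, and Gcg in beta-like cells was at 2604 CPM in the Cre-positive and 248 CPM in the Cre-negative library, while IHG offspring had 861 CPM and control offspring 791 CPM. For each 1000 Gcg UMIs there were 10.1 Gpx3 UMIs in Cre-positive and 243 in Cre-negative beta-like cells, and 45.7 in IHG and 17.1 in control offspring ones. In alpha-like cells the same quantity was 4.57 in the Cre-positive and 10.2 in the Cre-negative library, while IHG offspring had 4.99 and control offspring 3.91. Against the UMIs of Gcg, Sst, Ppy and Pyy together, the excess was smaller: per 1000 of these, beta-like cells had 5.21 Gpx3 UMIs in Cre-positive and 10.1 in Cre-negative libraries, and 14.5 in IHG and 8.34 in control offspring. Alpha-like cells had 4.27 in Cre-positive and 8.81 in Cre-negative libraries, and 4.71 in IHG and 3.69 in control offspring. By this sum, Gpx3 in beta-like cells was near the alpha-like value in the Cre-positive and Cre-negative libraries and above it in both offspring libraries. The hormones behind the sum differed: in the Cre-negative library Gcg gave 8567 of 205201 UMIs in beta-like and 680045 of 790866 in alpha-like cells. The values therefore compare unlike mixes of hormones. Delta-like cells had 1.09 to 1.97 Gpx3 UMIs per 1000, and the cells of cluster 11 had 6.03 in the Cre-negative library. There Ppy gave 79910, Gcg 25600 and Sst 6611 of the 568826 hormone UMIs, so most were Pyy. In endothelial-like cells there were, per 1000 Gcg UMIs, 12.0 Gpx3 UMIs in the Cre-positive, 31.1 in the Cre-negative, 6.004 in the IHG and 11.8 in the control offspring library, so that the IHG value was near the alpha-like one. All 8 alpha markers were detected in the beta-like cells of each library, and without Gcg and Ttr their sum was 316 CPM in the Cre-positive, 353 CPM in the Cre-negative, 238 CPM in the IHG and 282 CPM in the control offspring library. The part of free RNA and of mixed cells in the Gpx3 differences was not tested.

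For Hmox1 the 10 macrophage markers are the matching list. Their sum in beta-like cells was 17.5 CPM in the Cre-positive and 9.04 CPM in the Cre-negative library, while IHG offspring had 15.6 CPM and control offspring 12.8 CPM, with no marker at 20 CPM. At most 1 of the 10 was at 0 in any library. Per 1000 UMIs of these markers, beta-like cells had 1318 Hmox1 UMIs in the Cre-positive and 606 in the Cre-negative library, while IHG offspring had 784 and control offspring 1571. Macrophage-like cells had 104 in the Cre-positive, 73.1 in the Cre-negative and 46.4 in the IHG library. Hmox1 in beta-like cells was thus well above the macrophage-like ratio to these markers. Haemoglobin genes, whose haem is the substrate of HMOX1, summed to 75.0 CPM in Cre-positive and 0.608 CPM in Cre-negative beta-like cells, and to 25.6 CPM in IHG and 12.9 CPM in control offspring ones. The part of macrophage RNA and of haemoglobin in the Hmox1 differences was not tested.

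Of 9 further lists with 97 genes of the same pathways, 63 genes could be counted in beta-like cells for Cre-positive over Cre-negative. The rule called 11 of them as higher and 9 as lower, where it called 6.95% of all genes as higher and 19.4% as lower. The lists with the largest shares called were the NRF2-linked genes and the partners of Txnip. Among the 12 NRF2 pathway genes that could be counted, 6 lay higher and 1 lower with Cre, with a median log2 ratio of 0.45, against -0.21 over all genes. Ftl1, the ferritin light chain, was at 960 CPM in Cre-positive and 255 CPM in Cre-negative cells (log2 ratio 1.91). Maff, a small MAF protein, had a log2 ratio of 2.11, and Tkt, transketolase of the pentose phosphate pathway, one of 1.14. Nfe2l2, which encodes NRF2, was at 31.6 CPM in Cre-positive and 39.7 CPM in Cre-negative cells, short of the rule. In control offspring over Cre-negative, which shares the Cre-negative library, Ftl1 had a log2 ratio of 1.49 and Tkt one of 1.29. The NRF2 list there had 2 higher and 0 lower genes among 12, with a median of -0.10, against -0.29 over all genes.

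The glucose-responsive partners of Txnip had 1 higher and 4 lower genes among 8, with a median of -0.62. The lower ones included Arrdc4, a relative of Txnip among the alpha-arrestins, at 15.4 CPM in Cre-positive and 40.3 CPM in Cre-negative cells (log2 ratio -1.39), and Tbc1d16 (-1.43). Nr1d1, a clock gene repressor, was the higher one (1.46). Of the transcription factors that act on Txnip, Mlxip, which encodes MondoA, was at 25.4 CPM in Cre-positive and 44.5 CPM in Cre-negative cells, and Mlxipl, which encodes ChREBP, at 354 CPM in Cre-positive and 419 CPM in Cre-negative cells. In control offspring over Cre-negative, Arrdc4 had a log2 ratio of -1.86 and Nr1d1 one of 1.31. The list of Txnip partners there also had 1 higher and 4 lower genes among 8, with a median of -0.66.

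The glutathione and thioredoxin systems themselves differed less. None of 6 glutathione transferases passed the rule, 1 of 10 thioredoxin and glutaredoxin genes did (Glrx, 0.64), and 2 of 6 other peroxidases were lower (Prdx4, the endoplasmic reticulum peroxiredoxin, -0.81, and Prdx3, the mitochondrial one, -0.60). Of 5 genes of glutathione synthesis and breakdown, Chac1, which degrades glutathione and is induced by the integrated stress response, was at 72.6 CPM in Cre-positive and 6.37 CPM in Cre-negative cells (log2 ratio 3.51), and Gclc, the catalytic subunit of the first step of synthesis, was lower (-0.86). Among 11 other selenoprotein genes Dio1, the type I deiodinase, was at 112 CPM in Cre-positive and 24.7 CPM in Cre-negative cells (2.18) and Selenow was also higher (0.62), so that Gpx4 and Gpx1 were not joined by the majority of selenoprotein genes. Of 4 genes of selenoprotein synthesis, Sephs1 was lower (-1.14). The 1 countable gene of superoxide sources did not pass. The medians of these 6 lists lay between -0.18 and 0.06, with that last gene at -0.19.

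In IHG over control offspring no gene of the 9 lists passed the rule in beta-like cells, with list medians from -0.23 to 0.41 and -0.06 over all genes. The 11 other selenoprotein genes had a median of -0.23, whereas Gpx4 had a log2 ratio of 0.86 and Gpx3 one of 1.54. In alpha-like cells 10 of 58 list genes that could be counted passed, 2 as higher and 8 as lower, where 8.48% of all genes did. Lower in IHG offspring were Mlxipl, with 16.5 CPM in IHG and 52.7 CPM in control offspring (log2 ratio -1.67), Klf10 (-1.16), Rgs16 (-0.85), Maff (-1.32), Bach1 (-0.59), Srxn1 (-0.74), Gstm1 (-0.63) and Dio1 (-0.76). Higher were the selenoprotein genes Selenon (0.69) and Selenom (0.63). Klf10 and Rgs16 were also lower in IHG delta-like cells, at -1.33 and -0.90. Txnip was lower in both of these classes.

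The promoters of Txnip and Arrdc4 are shown because MondoA and ChREBP are known to act on both through E-box-like elements. Each stretch holds 250 bases before and 50 after the start (RefSeq, GRCm38.p6), and capitals mark matches to CACGNG on either strand.
Txnip, chr3:96557707-96558006, plus strand: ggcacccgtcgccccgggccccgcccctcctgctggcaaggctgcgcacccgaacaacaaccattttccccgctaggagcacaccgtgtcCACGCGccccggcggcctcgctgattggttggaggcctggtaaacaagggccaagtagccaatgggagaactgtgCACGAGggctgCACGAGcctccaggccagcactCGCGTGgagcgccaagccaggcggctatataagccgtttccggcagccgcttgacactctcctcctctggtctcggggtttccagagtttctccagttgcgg
Arrdc4, chr7:68749189-68749488, minus strand: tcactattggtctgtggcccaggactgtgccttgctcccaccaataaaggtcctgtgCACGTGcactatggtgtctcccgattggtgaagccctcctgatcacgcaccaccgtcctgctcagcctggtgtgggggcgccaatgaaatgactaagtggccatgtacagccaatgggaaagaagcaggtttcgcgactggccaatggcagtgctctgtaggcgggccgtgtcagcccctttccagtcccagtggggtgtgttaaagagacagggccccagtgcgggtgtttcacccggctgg
The Txnip stretch had 4 matches to CACGNG, beginning at bases 91, 166, 177 and 199, and none to CACGTG. Arrdc4 had 1 match to CACGTG, at base 58, which is also its match to CACGNG. Of 32851 RefSeq promoters of the same length, 27.5% held CACGNG, 0.396% held 4 or more of it, and 7.15% held CACGTG. The core of the antioxidant response element, TGACNNNGC on either strand, was found in the Sod1 and Prdx1 stretches among the 9 genes of the set with a promoter entry, and in 12.4% of all promoters. A match describes the letters in the window and shows no binding.

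Over 25 sums of 1 class in 1 library, the genes with the most similar pattern of log2(CPM + 5) were found among 11352 genes. For Gpx3 these were Ndst4 (Pearson r 0.96), Drc1 (0.95) and Vwde (0.94), and for Hmox1 Trf (0.96), Lsp1 (0.95) and Lat2 (0.95). Cat went with Arrb1 (0.94), Hsd17b11 (0.92) and Shisa5 (0.92), Gpx1 with, among others, Hsd17b11 (0.92) and Ssh2 (0.91), and Prdx1 with Map7d1 (0.91), Plbd2 (0.91) and Arhgdia (0.90). Lower maxima were found for Sod1 (Ywhae 0.86, Uchl1 0.82, Mest 0.81), Gpx4 (Mpv17l2 0.85, Psmd4 0.83, Spr 0.82), Txnip (Zfp652 0.85, Tasor 0.85, Pbrm1 0.84) and Sod2 (Phyh 0.82, Cox16 0.79, Mipep 0.79). Nqo1 stayed under 20 CPM in each sum and was given none. The 25 sums share 4 libraries and their depth, so these coefficients are descriptions.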

How the data were processed

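Single-cell libraries of 4 islet preparations, 1 per condition, were analysed from the deposited matrices, which hold raw UMI counts per gene and barcode. Per the submitters' processing notes, Cell Ranger, Seurat and mm10 were used; the sources used here give no version, annotation, barcode filter or strand setting. No barcode had under 500 UMIs, and the median per barcode was 5809 UMIs in the Cre-positive, 7373 in the Cre-negative, 6958 in the IHG and 5334 in the control offspring library.

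Barcodes with at least 500 genes and at most 20% mitochondrial UMIs were kept, and the 6% with the highest simulated-doublet scores in each library were removed (2595 cells). Log-scaled counts of 2000 variable genes, leaving out every gene of the lists used here, gave 30 principal components, 15 neighbours and Leiden clusters at resolution 1 (leidenalg 0.10.2 on igraph 0.11.9; scikit-learn 1.9.0). Clusters were named from marker lists; 3.49% to 15.9% of cells per library stayed unnamed, and names rebuilt in this way can differ from the study's. UMIs were summed per class and library (50 or more cells) and expressed as CPM. Ratios have exact conditional binomial 95% intervals, levels exact Poisson intervals. With 1 library per group no test was possible, and genes were named by size: 1.5-fold or more with 20 CPM or more in 1 library. All 10 genes are given in each comparison, of each other list its counts, its median and at most 3 genes with the largest differences past the rule, and for likeness the 3 best genes, of which 1 is not reported here; Nfe2l2, Mlxip, Mlxipl in beta-like cells and the clusters discussed were chosen after their values were seen. Work was done in Python 3.11.15 with pandas 2.3.3, scipy 1.17.1 and numpy 2.4.6, and figures were drawn with matplotlib 3.10.9. The rule was checked on simulated counts. Genes, lists and comparisons were chosen with earlier results of these data known. Positions come from GENCODE vM21, where 32158 of the 32285 gene identifiers were found.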

Additional observations from a re-analysis of the deposited data

Results flagged for a closer look

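Gpx3 lay on opposite sides in different classes of the same pair of libraries. For Cre-positive over Cre-negative it was higher in endothelial-like cells (log2 ratio 1.53, 122 UMIs in the Cre-positive and 6 in the Cre-negative library) and in macrophage-like cells (1.97, 43 UMIs in the Cre-positive and 1 in the Cre-negative library), and lower in beta-like cells (-1.20). With 1 library per condition, the difference between classes was not tested.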

How the results depend on the processing

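No paired analysis was possible because each condition is 1 library. Of the alternative values of called genes in beta-like cells, 42 of 50 kept the call for Cre-positive over Cre-negative and 23 of 30 for IHG over control offspring; in alpha-like cells 5 of 6 and 12 of 12 did, and in delta-like cells 6 of 6 and 12 of 12, under alternatives that did not include single clusters. Gpx3 changed sign in beta-like cells. Its Cre-positive over Cre-negative log2 ratio was 0.22 with libraries clustered separately, 0.25 in the cluster shared most and 0.92 with cluster 3 left out. Its IHG over control log2 ratio was -0.077 in the cluster shared most. In these shared clusters, 0 and 2, Gpx3 was under 20 CPM in both libraries. The intervals of the ratio there (0.538 to 2.52 and 0.769 to 1.16) reached past 1, so in these 2 clusters the difference was lost and not reversed. With cluster 3 left out it was reversed: Gpx3 was then higher in Cre-positive cells by more than 1.5-fold. Gpx4 in proliferating cells had -0.13 for IHG over control offspring with each library clustered on its own (79 UMIs in IHG, 19 in control offspring). The cause was not tested. Txnip for Cre-positive over Cre-negative was -0.54 with libraries clustered separately. Genes called higher and lower for Cre-positive over Cre-negative (449 and 1250) were 770 and 628 with median-of-ratios scaling, 241 and 591 with a floor of 50 CPM, 2621 and 4429 with no floor, and 198 and 347 with a 2-fold rule; 683 were higher with totals without hormone and mitochondrial genes, and 427 lower with cluster 3 left out. For IHG over control offspring (30 and 44) they were 14 and 19 with 50 CPM, 1298 and 1439 with no floor, and 6 and 4 with 2-fold; 72 were higher with the other totals, 46 higher after thinning to 3000 UMIs per cell, and 23 and 20 lower with median-of-ratios scaling and in the cluster shared most. Of members for Cre-positive over Cre-negative, 0 were lower with each library clustered on its own, in the cluster shared most and with cluster 3 left out, and 1 was higher with 50 CPM. Of those for IHG over control offspring, Hmox1, at 20.1 CPM in control offspring, left the count (0 lower) with no doublets removed, own clustering, at most 10% mitochondrial UMIs, the cluster shared most, thinning, 50 CPM and 2-fold, and 2 were lower with no floor; 1 was higher in the cluster shared most, with 2-fold and with cluster 3 left out, and 0 with 50 CPM. Depth limits Cat and Nqo1 in endocrine cells.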
